A study of Mus musculus with 10 samples.

Results

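The genes described here are the FOXO transcription factors Foxo1, Foxo3 and Foxo4 and 7 genes of defence against reactive oxygen: Txnip, Sod1, Sod2, Cat, Prdx1, Gpx1 and Nfe2l2. They were taken by symbol from the deposited count table, in which 10 of 10 were found among 24544 genes, and 10 of 10 passed the filter on low counts that left 12203 genes for testing. The study sorted long-term hematopoietic stem cells, the rare marrow cells that can rebuild the blood for life, from the bone marrow of Hoxb5-mCherry mice aged 2 to 3 months. In this strain a red fluorescent protein reports Hoxb5, a gene that marks such cells. All cells were negative for lineage markers, CD34, CD48 and FLK2 and positive for KIT, SCA1, CD150 and the Hoxb5 reporter, and the groups differed in surface neogenin-1, the receptor encoded by Neo1. There were 5 NEO1+ and 5 NEO1- libraries, each made from 250 to 500 cells of 2 pooled mice. The labels name no treatment and no sex, and they do not say whether a NEO1+ and a NEO1- library of the same number came from the same mice.

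FOXO factors are transcription factors that growth factor signals hold in the cytoplasm: PI3K activates AKT, AKT phosphorylates FOXO proteins, and 14-3-3 proteins then keep them out of the nucleus. In the nucleus they turn on genes of cell cycle arrest, autophagy and oxidant defence, and in mice their loss is known to raise reactive oxygen in blood stem cells and to drive these cells out of quiescence. Superoxide dismutases convert superoxide to hydrogen peroxide, catalase, peroxiredoxins and glutathione peroxidases remove the peroxide, and NRF2, encoded by Nfe2l2, drives many of the genes that supply and recycle the reductants. FOXO and NRF2 proteins are regulated largely after translation, which RNA levels do not measure.

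The libraries differed in ways that touch these values. Totals were 21.2 to 38.9 M counts (M, mega), and the ribosomal RNA precursor Rn45s took 27.9% to 42.4% of them. Neo1 itself stood at 48.6 to 64.8 CPM (counts per M after TMM scaling) in 4 NEO1+ libraries and at 4.56 to 18.9 in the NEO1- libraries, but the library labelled NEO1+ replicate 4 had 12.5, inside the NEO1- range. Hoxb5, whose reporter was used to sort both groups, was low throughout, between 2.45 and 4.91 CPM in the NEO1+ group and between 0 and 2.43 CPM in the NEO1- group, without overlap (edgeR adjusted p 0.966); NEO1- replicate 3 had no Hoxb5 count and NEO1- replicate 1 had 0.223 CPM. Without NEO1+ replicate 4, Sod1 and Gpx1 had unadjusted edgeR p of 0.0123 and 0.0300. Of the 15 stem cell genes listed, 15 were tested, with a summed level of 3332 to 3706 CPM in NEO1+ and 3213 to 3750.1 in NEO1- libraries. An unadjusted edgeR p under 0.05 was reached by 2 of them, Tek and Ctnnal1, beside 6.6% of all genes tested. Tek and Ctnnal1 stood at 42.9 ± 9.58 and 58.8 ± 8.54 CPM in NEO1+ and 15.1 ± 4.52 and 38.0 ± 14.3 CPM in NEO1- (SD, n = 5; adjusted p 0.155 and 0.637). The groups did not overlap for 2 of the stem cell genes, Tek and Hoxb5, beside 2.48% of all genes tested. By contrast 7 of 16 lymphoid markers, Cd3e and Pax5 among them, had no count in any library. Of 17 erythroid markers, the adult hemoglobin genes Hba-a2, Hbb-b1, Hbb-bs and Hbb-bt had none either, while Hba-a1 had counts. The 12 tested all had a higher estimate in NEO1+ (median log2 fold change 2.14). Sums over the list were 1499 to 2340 CPM in NEO1+ and 1418 to 1759 in NEO1- libraries. Most of the summed level came from Car2, with a mean log2 CPM of 10.6 and a log2 fold change of 0.12. Granulocyte and monocyte markers, 14 genes with Mpo, Elane and S100a8 among them, summed to 2961, 493, 5167, 889 and 599.9 CPM in NEO1+ libraries 1 to 5 and to 382, 551, 3154, 1626 and 1129 in NEO1- libraries 1 to 5. The sums of 30 genes of the S, G2 and M phases were 1513 to 2238 CPM in NEO1+ and 817 to 1305 in NEO1- libraries, without overlap, and 12 megakaryocyte and platelet markers likewise gave 358 to 427 and 205 to 274. The genes of smallest p in these lists had the higher mean in NEO1+: Cdk1, Mcm4, Uhrf1 and Cdc20 (edgeR adjusted p 0.155, 0.248, 0.297 and 0.451), the megakaryocyte and platelet markers Clu, Selp, Vwf and Itga2b (0.0526, 0.140, 0.368 and 0.747) and, of the erythroid markers, Alas2 (0.747). The megakaryocyte and platelet markers had no common direction: of 11 tested, 6 had a higher and 5 a lower estimate in NEO1+. The part of these other cell type and cell cycle genes in the values below was not tested, except where a result without some libraries is given. In bulk RNA of this kind, fewer cells of a type and less RNA per cell cannot be told apart.

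None of the 10 genes passed the adjusted threshold of 0.05 between NEO1+ and NEO1- cells in edgeR's quasi-likelihood test, in which 0 of 12203 genes (0%) did. Gpx1 and Sod1 had the smallest unadjusted p, both with the lower mean in NEO1+ cells, at 0.813 and 0.792 of the NEO1- level. The estimates of the other 8 genes had unadjusted p of 0.327 or more, and the 95% intervals of Foxo3, Foxo4 and Nfe2l2 reached log2 fold changes of 1.08, 3.77 and 0.90, so that differences of these sizes were not excluded. In all, 6 of the 10 had a lower estimate in NEO1+ cells, beside 49% of all genes tested. Their median log2 fold change was -0.04, beside 0.01 over all genes tested. By unadjusted p under 0.05, 2 of the 10 genes were called, both lower in NEO1+, where 6.6% of all genes were called and 3.49% were called lower. The values of the groups overlapped for all 10 genes, while 2.48% of all genes had groups that did not overlap. DESeq2, an alternative that gave an adjusted p to 13721 genes, called 147 of them (1.07%) and 0 of the 10.

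**Figure D1:**
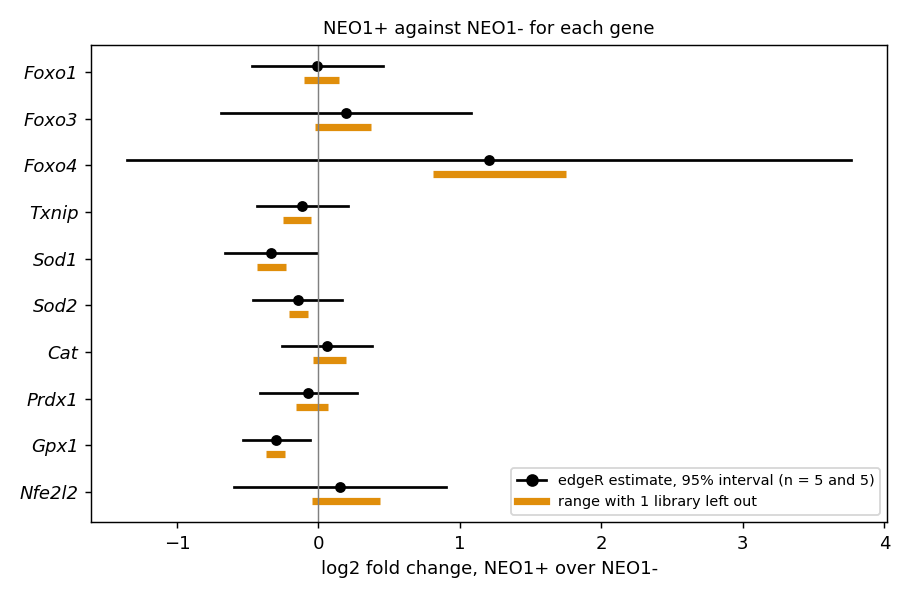
Log2 fold change of NEO1+ over NEO1- libraries (x axis) for each of the 10 genes (y axis), with the edgeR estimate and its 95% interval in black (5 libraries a group) and, in orange, the range of estimates when each library was left out in turn. Only the intervals of Sod1 and Gpx1 lie below 0, and the interval of Foxo4 is the widest, from -1.35 to 3.77.

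Per kilobase of transcript, the cytoplasmic enzymes Gpx1 and Sod1 stood highest and the FOXO factors lowest. The level per kilobase was computed from the principal transcript of each gene and averaged over all 10 libraries. It was highest for Gpx1, at 615 ± 100.3 CPM per kb, followed by Sod1 at 460.1 ± 99.6, Txnip at 280.5 ± 49.6 and Prdx1 at 107 ± 20.4 (SD, n = 10). Cat at 61.3 ± 9.55, Nfe2l2 at 40.6 ± 16.6 and Sod2 at 17.5 ± 2.48 came next. The FOXO genes were the lowest, with Foxo1 at 8.45 ± 1.97, Foxo3 at 2.54 ± 0.88 and Foxo4 at 0.50 ± 0.49 CPM per kb (SD, n = 10). Each gene exceeded the next in this order in all 10 libraries, except that Cat exceeded Nfe2l2 in 9 and Nfe2l2 exceeded Sod2 in 9. Length here is the whole transcript, so the order depends on the isoform that these cells use.

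**Figure D2:**
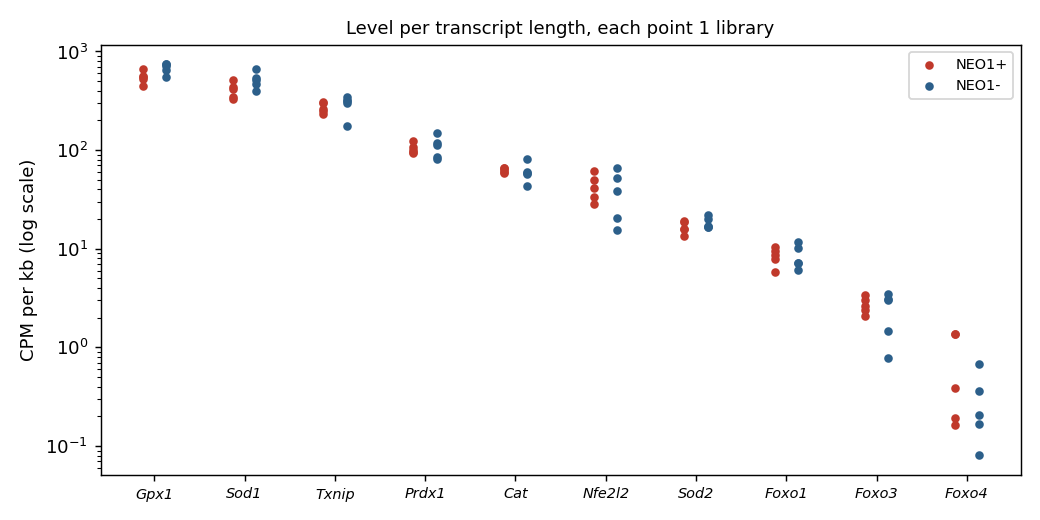
Level in CPM per kb of principal transcript (y axis, log scale) of the 10 genes in order of their mean (x axis), with 1 point per library, NEO1+ in red and NEO1- in blue. The ranges of Gpx1 and Foxo4, the ends of the order, are 449.6 to 743 and 0.0805 to 1.37 CPM per kb.

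Foxo1 was the most abundant of the FOXO genes and did not separate the groups. It stood at 89.2, 82.9, 67.8, 74.3 and 50.8 CPM in NEO1+ libraries 1 to 5 and at 102, 53.1, 87.9, 61.5 and 61.8 CPM in NEO1- libraries 1 to 5. High and low libraries occurred in both groups, and the log2 fold change was -0.01 (SE 0.22, 95% interval -0.47 to 0.46; edgeR adjusted p 0.9997). An antisense gene, Gm20402, shares exon sequence with Foxo1 and is not among the genes of the count table.

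Foxo3, the FOXO factor best known for keeping blood stem cells quiescent, was steadier in NEO1+ than in NEO1- libraries. Its values were 14.3, 18.0, 23.3, 16.5 and 20.9 CPM in NEO1+ libraries 1 to 5 and 20.6, 5.34, 21.4, 23.7 and 10.1 CPM in NEO1- libraries 1 to 5. NEO1- libraries 2 and 5 lay below the NEO1+ range and NEO1- library 4 just above it, and the SD of log2 CPM was 0.28 in NEO1+ and 0.92 in NEO1-. The log2 fold change was 0.20 (SE 0.41; edgeR adjusted p 0.998), and without NEO1- replicate 2 it was -0.03.

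Foxo4 was close to the limit of what these libraries resolve, with 8 to 141 counts per library. It stood at 4.32, 0.614, 0.513, 4.29 and 1.2 CPM in NEO1+ libraries 1 to 5 and at 0.255, 0.656, 2.13, 1.16 and 0.529 CPM in NEO1- libraries 1 to 5. NEO1+ libraries 1 and 4 exceeded all NEO1- libraries, and the other 3 lay among them. The log2 fold change of 1.21 had an SE of 1.19 and an edgeR adjusted p of 0.963.

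Txnip encodes thioredoxin-interacting protein, which binds and inhibits thioredoxin and limits glucose uptake, and it is required for blood stem cells to stay quiescent under stress. The gene lies on chromosome 3 from 96557957 to 96561857 on the plus strand (GRCm38.p6). Its promoter is printed because it was the single one, of 9 with a RefSeq entry, that held the FOXO recognition motif GTAAACA on either strand. These are the 250 bases before its start, chr3:96557707-96557956, 5′ to 3′ on the gene's strand, with the motif in capitals, 121 bases before the start:
Txnip: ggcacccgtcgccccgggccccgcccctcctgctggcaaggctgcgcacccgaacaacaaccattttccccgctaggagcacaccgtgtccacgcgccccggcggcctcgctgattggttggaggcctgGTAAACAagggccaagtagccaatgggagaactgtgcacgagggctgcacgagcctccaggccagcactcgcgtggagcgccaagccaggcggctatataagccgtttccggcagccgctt
The motif occurred in 3.17% of 32851 RefSeq promoter windows of this length, and a match is a sequence description, not a measured binding site.

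Txnip had the highest mean of the 10 genes in CPM not scaled by length. It stood at 737, 689.9, 655, 852 and 831 CPM in NEO1+ libraries 1 to 5 and at 846, 869.6, 496, 956 and 907 CPM in NEO1- libraries 1 to 5. NEO1- libraries other than replicate 3 occupied the upper end, with NEO1+ replicate 4 among them, while NEO1- replicate 3 was the lowest of all 10. The log2 fold change was -0.11 (SE 0.15, 95% interval -0.44 to 0.21; edgeR adjusted p 0.991). Without NEO1- replicate 3 it was -0.25, with an unadjusted edgeR p of 0.0162 and an adjusted p of 0.523, so the size of the difference rests on that library. It was the NEO1- library with the largest sum of granulocyte markers; their part in its Txnip value was not tested. An antisense gene, Gm15441, overlaps exons of Txnip and had 0.656 to 5.29 CPM. Whether counting used strand is not given in the sources used here, so reads of the overlap may have been assigned to either gene.

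Sod1 encodes the copper and zinc superoxide dismutase of the cytoplasm, and its gene spans chromosome 16 from 90220762 to 90226333 on the plus strand (GRCm38.p6). Its promoter, chr16:90220512-90220761, is shown with that of Gpx1, chr9:108338830-108339079, because these were the genes with the smallest p. Capitals mark the core of the antioxidant response element that NRF2 binds, searched as TGACNNNGC on both strands:
Sod1: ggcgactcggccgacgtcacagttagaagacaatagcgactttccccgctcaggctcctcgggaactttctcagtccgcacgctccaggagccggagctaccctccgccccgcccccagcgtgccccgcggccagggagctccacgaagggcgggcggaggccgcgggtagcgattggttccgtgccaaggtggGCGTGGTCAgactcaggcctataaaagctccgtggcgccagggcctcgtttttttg
Gpx1: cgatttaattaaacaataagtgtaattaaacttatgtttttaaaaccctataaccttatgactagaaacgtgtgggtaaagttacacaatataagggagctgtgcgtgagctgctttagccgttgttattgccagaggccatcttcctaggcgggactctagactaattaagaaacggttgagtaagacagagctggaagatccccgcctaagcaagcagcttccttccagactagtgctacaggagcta
Sod1 held the element on the minus strand 56 bases before its start, and the letters occurred neither in this window of Gpx1 nor in that of Txnip. Nfe2l2 and Prdx1 also held it, 240 and 133 bases before their starts, and 10.2% of all promoter windows did. No entry for Foxo4 was found. The sequences are from RefSeq.

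Sod1 stood at 209, 267, 219.9, 329.9 and 277 CPM in NEO1+ libraries 1 to 5, a mean of 261 ± 48.4 (SD, n = 5). It stood at 252, 342, 421, 333.0 and 297 CPM in NEO1- libraries 1 to 5, a mean of 329 ± 62.5 (SD, n = 5). The 2 lowest libraries were NEO1+ replicates 1 and 3 and the 2 highest were NEO1- replicates 3 and 2, with the rest interleaved. The log2 fold change of -0.34 (SE 0.15, 95% interval -0.66 to -0.01) had an unadjusted edgeR p of 0.0438 and an adjusted p of 0.734. NEO1+ replicates 1 and 3 and NEO1- replicate 3 were also the 3 libraries with the largest sums of granulocyte markers. Among the fits that each left out 1 library, 7 of 10 gave Sod1 an unadjusted edgeR p over 0.05, up to 0.132 without NEO1- replicate 3. When the 3 libraries were left out together, a check added after the values were seen, the log2 fold change was -0.07 with an unadjusted edgeR p of 0.634. These 3 held the 2 lowest NEO1+ values and the highest NEO1- value of Sod1. Their removal lowers the difference whatever their granulocyte content, so the part of granulocyte markers in the Sod1 values was not tested. A processed pseudogene, Gm8566, matches the Sod1 transcript at 97.8% identity over 465 bases and is not among the genes of the count table, so how its reads were assigned is unknown.

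Sod2, the manganese dismutase of mitochondria and a classical FOXO3 target, had overlapping values. It stood at 93.1, 109.9, 92.6, 79.0 and 113 CPM in NEO1+ libraries 1 to 5 and at 100.2, 117, 129, 97.3 and 96.4 CPM in NEO1- libraries 1 to 5. NEO1- replicates 2 and 3 exceeded every NEO1+ library, and the log2 fold change was -0.15 (SE 0.15, 95% interval -0.46 to 0.17; edgeR adjusted p 0.965).

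**Figure D3:**
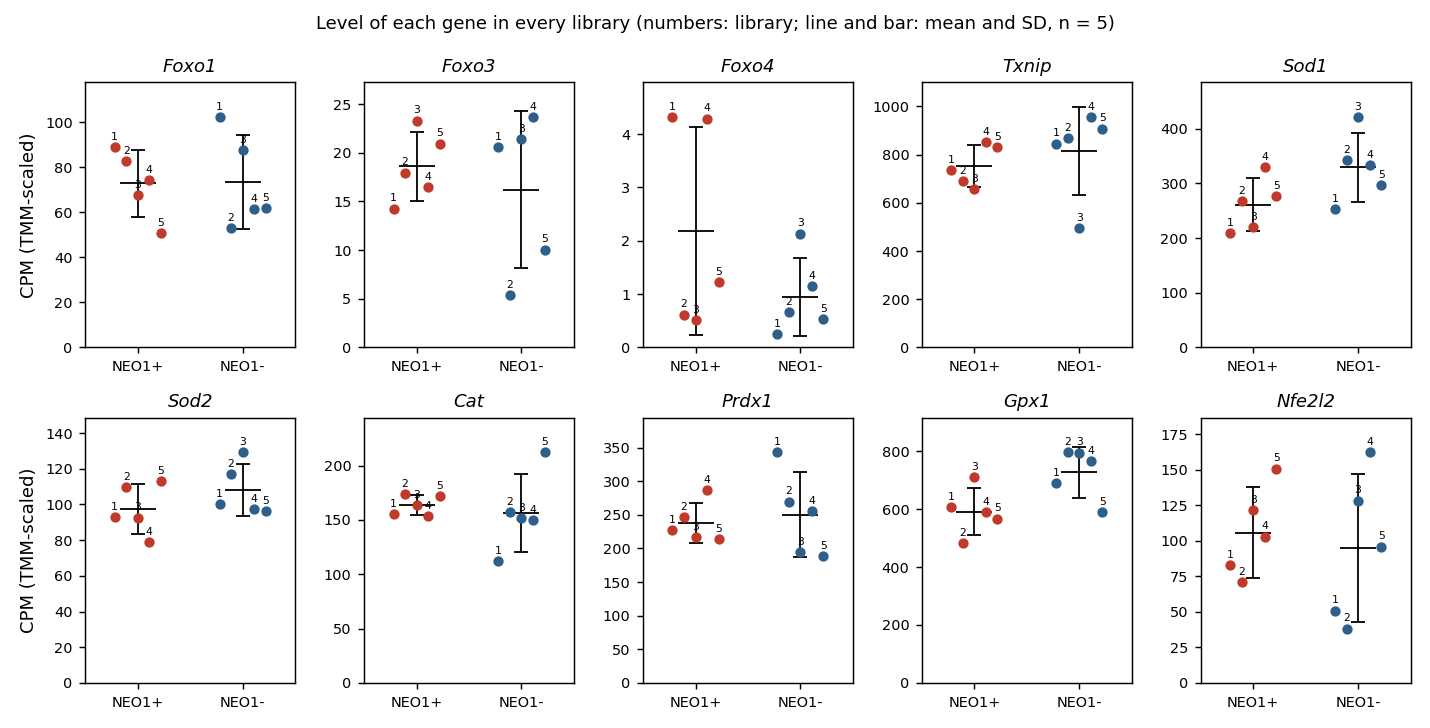
TMM-scaled CPM (y axis, from 0) of each gene in the NEO1+ (red) and NEO1- (blue) libraries, numbered 1 to 5, with the mean and SD of each group (n = 5). The groups overlap in every panel, NEO1- replicate 3 stands apart at 496 CPM for Txnip, and Cat and Prdx1 are spread more widely in NEO1- than in NEO1+ libraries.

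Cat encodes catalase, the peroxisomal enzyme that splits hydrogen peroxide without a cofactor reductant. It was the least variable of the 10 genes among NEO1+ libraries, at 155, 174, 164, 153 and 172 CPM in libraries 1 to 5. In NEO1- libraries 1 to 5 it stood at 112, 158, 152, 149.6 and 212 CPM, so that the lowest and the highest library were both NEO1-. The SD of log2 CPM was 0.08 in NEO1+ and 0.33 in NEO1-, and the log2 fold change was 0.06 (SE 0.15; edgeR adjusted p 0.998).

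Prdx1 encodes a peroxiredoxin that draws its electrons from thioredoxin, and it ran opposite to Cat from library to library. It stood at 228, 247, 217, 286 and 214 CPM in NEO1+ libraries 1 to 5 and at 343, 269.8, 195, 256 and 188 CPM in NEO1- libraries 1 to 5. NEO1- replicate 1 was the highest of all libraries in Prdx1 and the lowest in Cat, and NEO1- replicate 5 was the lowest in Prdx1 and the highest in Cat. Across the 10 libraries the correlation of log2 CPM between Cat and Prdx1 was -0.77, and it was -0.78 after the group means were removed. This was the most negative of the 45 pairs among the 10 genes and is given as a description, since the values of a pair share a library and its scaling. The log2 fold change of Prdx1 between the groups was -0.07 (SE 0.16; edgeR adjusted p 0.998). The processed pseudogenes Gm21399 and Gm7204 match Prdx1 at 98.3% and 97.5% identity over 597 bases and are not among the genes of the count table.

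Gpx1 encodes the main cytoplasmic glutathione peroxidase, a selenoenzyme, and spans chromosome 9 from 108339080 to 108340342 on the plus strand (GRCm38.p6). It stood at 607, 482, 711, 589.9 and 567 CPM in NEO1+ libraries 1 to 5, a mean of 591 ± 82.2 (SD, n = 5). It stood at 689, 796, 795, 765 and 591 CPM in NEO1- libraries 1 to 5, a mean of 727 ± 87.8 (SD, n = 5). NEO1- replicates 2, 3 and 4 exceeded all NEO1+ libraries, and NEO1- replicates 1 and 5 lay inside their range. The log2 fold change of -0.30 (SE 0.11, 95% interval -0.54 to -0.06) had an unadjusted edgeR p of 0.0174 and an adjusted p of 0.604. With any 1 library left out it ranged from -0.37 to -0.23, with unadjusted edgeR p of 0.00401 to 0.0495, and without the 3 libraries highest in granulocyte markers it was -0.38 (unadjusted p 0.0143).

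Sod1 and Gpx1 are short and abundant transcripts, of 641 and 1072 bases, and such transcripts as a class had lower estimates in NEO1+ libraries. Transcript lengths were available for 12032 of the genes tested (98.6%). Among 820 genes of up to 1000 bases the median log2 fold change was -0.27, and 12.1% had an unadjusted edgeR p under 0.05 in that direction. It was -0.05 for 2590 genes of 1001 to 2000 bases, 0.06 for 4938 of 2001 to 4000 bases and 0.05 for 3684 longer ones. The pattern was sharper among genes with a mean log2 CPM of at least 7, the 10 genes left out. There 73 of 76 genes of up to 1000 bases had a lower estimate in NEO1+, with a median of -0.32, and 60.5% had an unadjusted edgeR p under 0.05. Of 283 such genes of 1001 to 2000 bases, 68.6% had a lower estimate, with a median of -0.09, and 18.7% had an unadjusted edgeR p under 0.05 in that direction. Many of the 76 shortest encode ribosomal proteins, such as Rps9 (914 bases, -0.47). Ribosomal protein genes with longer annotated principal transcripts were also lower, among them Rpl18 (2989 bases, -0.27), Rps20 (3706 bases, -0.35) and Rps15a (5179 bases, -0.38). These lengths are those of the longest transcript tagged as principal. The isoforms that these cells use were not measured and may be shorter, so these genes cannot separate length from gene family. The ribosomal protein-like gene Rpl7l1 (2606 bases) was at 0.06. The parts of length and of gene family were not tested. The estimate of Sod1 (-0.34) lay near the median of abundant transcripts of its length class, and that of Gpx1 (-0.30), at the short end of the class of 1001 to 2000 bases, lay below the median of its class.

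The same contrast can be read in each library as the mean log2 CPM of those 76 short genes minus that of 554 abundant genes longer than 2000 bases, a measure chosen after the fold changes were seen. It was 0.44, 0.41, 0.33, 0.37 and 0.40 in NEO1+ libraries 1 to 5 and 0.84, 0.99, 0.66, 0.65 and 0.52 in NEO1- libraries 1 to 5. The groups did not overlap. The part of this measure, and of the ribosomal protein genes within it, in the values of Sod1 and Gpx1 was not tested. The number of genes detected was 12800 to 13808 in NEO1+ and 11477 to 13147 in NEO1- libraries. The groups overlapped in it only through NEO1- replicate 4, and NEO1- replicates 1, 2, 3 and 5 lay below every NEO1+ library. The share of Rn45s, 27.9% to 37.7% and 30.7% to 42.4%, overlapped as well, with NEO1- replicates 1, 2 and 3 above every NEO1+ library.

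**Figure D4:**
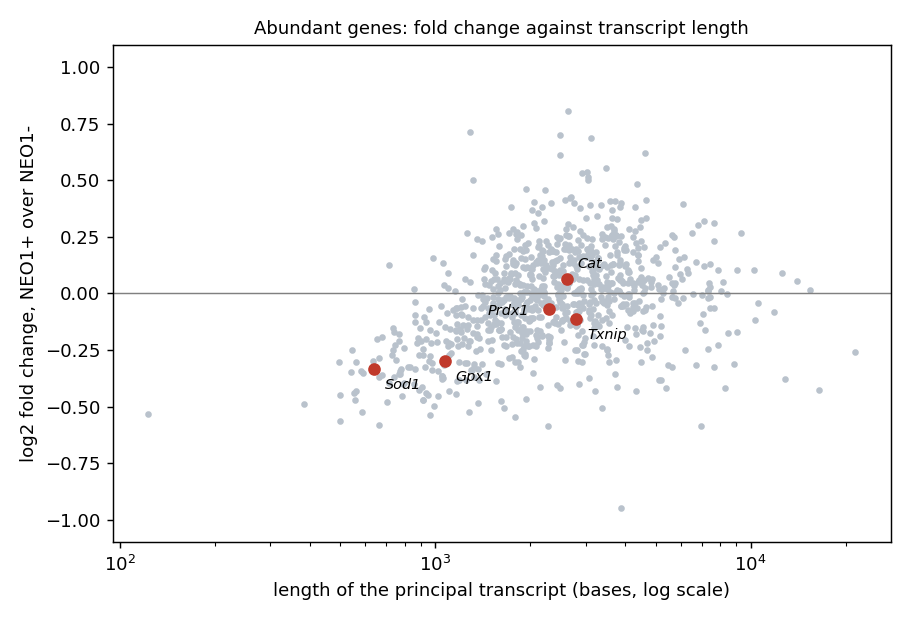
Log2 fold change of NEO1+ over NEO1- libraries (y axis) against the length of the principal transcript in bases (x axis, log scale) for 918 genes with a mean log2 CPM of at least 7 (grey) and the 5 described genes among them (red). Points of up to 1000 bases, Sod1 among them, lie almost entirely below 0, and Gpx1, at 1072 bases, lies just past that limit in a length class with a median of -0.09.

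Nfe2l2 encodes NRF2, and its RNA varied widely within both groups. It stood at 82.9, 70.7, 122, 103 and 151 CPM in NEO1+ libraries 1 to 5 and at 50.8, 38.2, 128, 162 and 95.9 CPM in NEO1- libraries 1 to 5. NEO1- libraries held both the highest value and the 2 lowest, and the log2 fold change was 0.15 (SE 0.35, 95% interval -0.59 to 0.90; edgeR adjusted p 0.998). Nfe2l2 and Foxo3 were both lowest in NEO1- replicate 2 and both highest in NEO1- replicate 4. Their correlation of log2 CPM over the 10 libraries, 0.68 and within groups 0.66, was the largest among the 45 pairs. Sod1 and Gpx1 had a correlation of 0.42, which was 0.08 after the group means were removed.

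The spread within groups was larger in NEO1- libraries for most of these genes. The SD of log2 CPM was larger in NEO1- for 7 of 10 genes (70%), with a median of 0.37 in NEO1- and 0.24 in NEO1+. Over all genes tested it was larger in NEO1- for 78.3%, with medians of 0.64 and 0.40, so the share among the 10 genes was near that of all genes.

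For each gene, the gene of most similar course over the 10 libraries was sought among 7351 genes with a mean log2 CPM of at least 4, by the Pearson correlation of log2 CPM. The nearest to Foxo1 was Rab3gap1 (0.92), to Foxo3 Fam45a (0.96) and to Foxo4 Map3k3 (0.94). Txnip was nearest to Golph3l (0.91), Sod1 to Anxa9 (0.97) and Sod2 to Tmem41b (0.95). Cat was nearest to Arap1 (0.94), Prdx1 to Cct3 (0.95), Gpx1 to Arih2 (0.91) and Nfe2l2 to Khsrp (0.95). None of the 10 genes was the nearest gene of another, and Foxo4, below the level limit, was not among the candidates. The largest of 7351 correlations over 10 libraries is high even for unrelated genes. The neighbours are therefore given as a description, and no link between the genes was tested.

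Among the regulators that act on FOXO proteins, 0 of 31 passed the adjusted threshold in edgeR, and 17 had a higher and 14 a lower estimate in NEO1+ (median 0.07). An unadjusted p under 0.05 was reached by 2 higher and 3 lower genes, 5 of 31, beside 6.6% of all genes. Stk4, the MST1 kinase that phosphorylates FOXO proteins under oxidative stress and frees them from 14-3-3, stood at 65.3, 65.4, 53.5, 43.4 and 63.3 CPM in NEO1+ libraries 1 to 5 and at 94.5, 102, 81.4, 68.2 and 106 in NEO1- libraries 1 to 5. All NEO1- libraries exceeded all NEO1+ libraries, with a log2 fold change of -0.64 (SE 0.18; unadjusted edgeR p 0.00306, adjusted 0.400). Crebbp, an acetyltransferase that modifies FOXO proteins, averaged 38.9 ± 12.8 and 59.1 ± 16.0 CPM (SD, n = 5; edgeR adjusted p 0.673). On the inhibitory branch, Akt1, the kinase that excludes FOXO from the nucleus, averaged 251 ± 20.7 CPM in NEO1+ and 187 ± 45.9 in NEO1- (SD, n = 5). Its log2 fold change was 0.43 with an SE of 0.16 and an adjusted edgeR p of 0.624. Pik3r1, a regulatory subunit of PI3K, averaged 237 ± 22.2 and 189.7 ± 39.7 CPM (edgeR adjusted p 0.723). The other lower gene, Tsc2, fell outside the rule for naming and is given because the count is small; it averaged 46.9 ± 9.58 and 64.7 ± 16.7 CPM (edgeR adjusted p 0.747).

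Known FOXO target genes of cell cycle arrest, apoptosis and autophagy showed no common direction. Of 23 listed genes 22 were in the table and tested, 10 with a higher and 12 with a lower estimate (median -0.01), and 0 passed the adjusted threshold in edgeR. Gabarapl1, which helps form autophagosomes, had the single unadjusted p under 0.05 of the 22, beside 6.6% of all genes. It stood at 228 ± 17.8 CPM in NEO1+ and 193 ± 23.5 in NEO1- (SD, n = 5; edgeR adjusted p 0.728). The cell cycle inhibitor Cdkn1b averaged 13 ± 4.34 and 17.3 ± 11.3 CPM (edgeR adjusted p 0.985) and was chosen for its role as the best known of these targets.

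In the thioredoxin and peroxiredoxin system, 8 of 18 genes had a higher and 10 a lower estimate (median -0.03), and 0 passed the adjusted threshold in edgeR. Thioredoxin and its reductase stood on opposite sides, and the part of transcript length in their values, as described above, was not tested. Txn1, the cytoplasmic thioredoxin that TXNIP binds, averaged 132 ± 13 CPM in NEO1+ and 170.0 ± 21.3 in NEO1- (SD, n = 5), and the log2 difference was -0.37 (SE 0.12; unadjusted edgeR p 0.00955, adjusted 0.548). Txnrd1, which reduces it, averaged 139.8 ± 11.5 and 115 ± 14.1 CPM, and the log2 difference was 0.28 (SE 0.12; unadjusted edgeR p 0.0396, adjusted 0.721).

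In the glutathione system, 9 of 19 genes had a higher and 10 a lower estimate, with a median of -0.21, and 0 passed the adjusted threshold in edgeR. An unadjusted p under 0.05 was reached by 4 of the 19 genes, all with the lower mean in NEO1+, beside 6.6% of all genes in either direction and 3.49% in that direction. Gpx4, the peroxidase of membrane lipids, stood at 190.0 to 244 CPM in NEO1+ and at 257 to 313 in NEO1- libraries, without overlap (log2 fold change -0.28, SE 0.10; edgeR adjusted p 0.596). Its transcript of 959 bases is in the class of abundant genes of up to 1000 bases described above. That class had a median of -0.32, and 60.5% of it had an unadjusted edgeR p under 0.05 in that direction. The part of transcript length in the values of Gpx4, and of the transferases named next, was not tested. The glutathione transferases Gstp1 and Gstt2 averaged 86.0 ± 4.83 and 117 ± 22.1 CPM, and 26.2 ± 7.02 and 43.7 ± 14.6 CPM, in NEO1+ and NEO1- (SD, n = 5; edgeR adjusted p 0.548 and 0.604). Mgst1, a transferase of membranes, averaged 22.4 ± 5.69 and 35.7 ± 5.42 CPM (edgeR adjusted p 0.604). Glutathione reductase, Gsr, was at 101 ± 33.4 and 74.3 ± 14.4 CPM (edgeR adjusted p 0.790) and is given as the enzyme that recycles the cofactor of Gpx1.

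Of 12 genes that make superoxide or supply copper to the dismutase, 10 were tested, 6 with a higher and 4 with a lower estimate (median 0.06). Cybb, the catalytic subunit of the phagocyte NADPH oxidase, was the single gene of the 10 with an unadjusted p under 0.05, beside 6.6% of all genes. It had 408, 95, 1596, 56 and 64 counts in NEO1+ libraries 1 to 5 and 0, 0, 0, 40 and 8 in NEO1- libraries 1 to 5, without overlap (edgeR adjusted p 0.508, DESeq2 adjusted p 0.0136). NEO1+ replicates 3 and 1, with the most Cybb counts, also had the largest granulocyte sums of their group, at 5167 and 2961 CPM, while NEO1- replicate 3, with a sum of 3154 CPM, had no Cybb count. Without these 3 libraries the unadjusted edgeR p of Cybb was 0.276. Ccs, the copper chaperone of SOD1, averaged 28.8 ± 4.56 and 38.5 ± 10.7 CPM (edgeR adjusted p 0.848).

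The partners of NRF2 gave 6 higher and 7 lower estimates among 13 genes (median -0.06), with 0 at an unadjusted edgeR p under 0.05. Keap1, the sensor that marks NRF2 for degradation, stood at 125 ± 24.6 CPM in NEO1+ and 117 ± 38.9 in NEO1- (SD, n = 5; edgeR adjusted p 0.998). Of 17 NRF2 target genes, 7 had a higher and 10 a lower estimate (median -0.04), and 0 passed the adjusted threshold in edgeR. The summed level of these 17 genes was 4262 to 4618 CPM in NEO1+ and 4731 to 5384 in NEO1- libraries, without overlap, and most of it came from the ferritin genes. Ftl1, the light chain, stood at 1665 to 1834 CPM in NEO1+ and at 1874 to 2315 in NEO1- libraries (log2 fold change -0.22, SE 0.06; unadjusted edgeR p 0.00435, adjusted 0.458), and Fth1, the heavy chain, averaged 1204 ± 26.9 and 1348 ± 91.3 CPM (edgeR adjusted p 0.604). Their transcripts of 968 and 1494 bases fall in length classes whose abundant genes had medians of -0.32 and -0.09. The log2 fold change of Fth1 was -0.16. The part of transcript length in the summed level was not tested. Abcc1, an exporter of glutathione conjugates, had its higher mean in NEO1+, at 65.4 ± 14.4 CPM in NEO1+ and 37.6 ± 14.5 in NEO1- (SD, n = 5; log2 fold change 0.80, SE 0.26; unadjusted edgeR p 0.00835, adjusted 0.547). The inducible NRF2 targets Nqo1 and Hmox1, given for their common use as readouts, averaged 15.5 ± 6.05 and 18.3 ± 9.18 CPM, and 9.13 ± 4.48 and 14.5 ± 7.06 CPM (edgeR adjusted p 0.998 and 0.916).

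**Figure D5:**
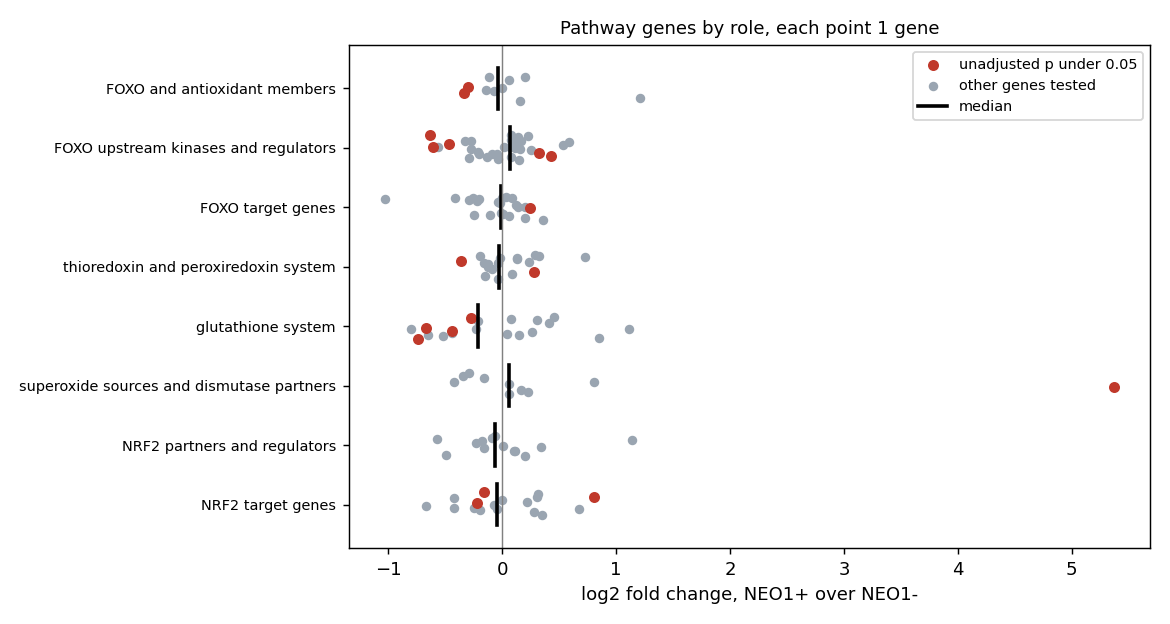
Log2 fold change of NEO1+ over NEO1- libraries (x axis) of every tested gene in the 10 described genes and 7 pathway lists (y axis), 1 point per gene, with genes of unadjusted edgeR p under 0.05 in red and the median of each list as a black bar. The medians lie between -0.21 for the glutathione system and 0.07 for the FOXO regulators, and the point far to the right is Cybb.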

How the data were processed

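RNA was measured in 10 bulk libraries (5 NEO1+ and 5 NEO1-) by Smart-seq2 with 18 cycles of PCR and transposase fragmentation of 40 ng of cDNA, per the labels' protocols. The authors deposited raw counts per gene symbol, which were used for all main results, and a table of log2 values, each equal to log2 of the count over 1 constant per library, plus 1 (largest residual 1.0e-13), used for 1 alternative. The submitters' processing notes name bcl2fastq 2.18, STAR 2.4, DESeq2 1.22.2, DESeq and the build mm10. The counting tool, annotation and use of strand are not given in the sources used here. The libraries hold no molecular identifiers, so PCR copies were counted as reads. Of 24544 genes, 8860 had no count.

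Counts were tested with the robust quasi-likelihood test of edgeR 4.0.16 (R 4.3.3) after filterByExpr and TMM scaling, with Benjamini-Hochberg adjustment over 12203 genes and a threshold of 0.05. Rn45s was kept in the library sizes. SEs were derived by dividing the log2 estimate by the root of F. CPM uses TMM-scaled sizes, and log2 CPM a prior count of 2. The common coefficient of biological variation in edgeR was 0.717. Within groups, the counts of any pair of libraries differed by a chi-square of at least 83.1 per degree of freedom. This cannot show whether the libraries of a group came from different mice. Each library was counted as 1 replicate. The p-values measure the spread between these libraries, and the labels say only that each pooled 2 mice. Alternatives were DESeq2 1.42.0, RLE size factors, no filter, Rn45s removed, the replicate number as a block, limma-trend (limma 3.58.1) on the deposited log2 values, the number of detected genes as a covariate and each library left out in turn.

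The 10 genes and the 13 other lists were chosen with earlier results of these data known. All 10 genes are described. From the other lists, up to 4 genes of smallest unadjusted p under 0.05 are named when none passes the adjusted threshold. Tsc2, Cdkn1b, Gsr, Ccs, Keap1, Nqo1 and Hmox1 and the abundance and length comparison were added after values were seen. Lengths are those of the principal transcript in GENCODE M21. This was the longest transcript tagged there as principal or, without such a tag, the longest in the basic set. Promoters and gene positions are those of RefSeq for GRCm38.p6, and near-identical copies were sought with blastn. Promoter entries were found for 9 of the 10 genes.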

Additional observations from a re-analysis of the deposited data

Results flagged for a closer look

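Txnip in NEO1- replicate 3 stood apart from the other NEO1- libraries, at 8.95 log2 CPM (496 CPM), where the other 4 lay between 9.72 and 9.90. The gap to the nearest of them was 0.813 of the range of the group, beyond the Dixon limit of 0.71 for 5 libraries. The 10 genes in both groups gave 20 such comparisons, of which chance would mark about 1.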

How the results depend on the processing

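Of the 10 genes, 0 passed the adjusted threshold under any of the 18 alternatives, of which DESeq2 and limma-trend change the test together with the scaling, and DESeq2 the filter as well. Over all genes, edgeR called 0, against 147 with DESeq2, 2 without the filter on low counts, 1 with limma-trend and 0 to 1 with each library left out (1 without NEO1- replicate 1); the cause was not tested. Of the 10 genes, 2 had an unadjusted p under 0.05, against 1 with detected genes as a covariate, 1 without the 3 libraries highest in granulocyte markers (added after the data were seen) and 1 to 2 with each library left out. Gpx1 was among them in all 18 alternatives. Sod1 dropped out with the covariate, without those 3 libraries and in 7 of the 10 fits that left out a library (without NEO1+ replicates 1, 2, 3 or 5 or NEO1- replicates 2, 3 or 4), where its unadjusted p reached 0.132. Those 3 libraries held the lowest NEO1+ values and the highest NEO1- value of Sod1, so their removal lowers its difference whatever their granulocyte content. Same-numbered libraries had correlations of 0.00 to 0.04 in their deviations from the group means, and 3 of 5 numbers matched best with themselves. These values cannot decide whether a number marks shared mice, since no test of pairing was run. Because the labels do not say so either, the number was used as a block only in an alternative. With the replicate block, edgeR called 0 genes (874 against 806 at an unadjusted p under 0.05) and the same 2 of the 10 genes, Sod1 and Gpx1, stayed under 0.05 unadjusted. With detected genes as a covariate, 277 of all genes tested had an unadjusted edgeR p under 0.05, against 806.

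The direction turned under at least 1 alternative for Foxo1, Foxo3, Sod2, Cat, Prdx1 and Nfe2l2, and under none of the 18 for Foxo4, Txnip, Sod1 and Gpx1. Foxo1 (-0.01) was 0.39 with the covariate, 0.0103 under the replicate block, 0.0068 in limma-trend and -0.10 to 0.14 with a library left out. With the covariate Sod2 was 0.0121, Cat -0.10, Prdx1 0.0595 and Nfe2l2 -0.36. With a library left out Foxo3 ranged from -0.0258 to 0.37, Cat from -0.0358 to 0.20, Prdx1 from -0.16 to 0.0698 and Nfe2l2 from -0.0463 to 0.44. The median over all genes was 0.11 when limma-trend took the deposited values and 0.01 in edgeR.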
